A study of Mus musculus and Homo sapiens with 4 samples.

Results

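The Hox genes of mouse embryonic fibroblasts (MEFs) were examined in 2 cultures, 1 wild-type (WT) and 1 NEAT1 knockout (KO). All entries of the MEF tables whose symbol was Hoxa, Hoxb, Hoxc or Hoxd followed by a number from 1 to 13 were taken, which gave 39 genes among 23329 entries. The series holds 4 libraries, of which the MEF libraries are used here and the others come from a human prostate cancer line. Both MEF lines were derived from C57BL/6 embryos of day E13.5 and were labelled as passages 2 to 3. Both were grown in an equal mixture of DMEM and HamF12 with fetal calf serum and antibiotics, with no further treatment, and poly-A RNA was sequenced. The sole labelled difference was the NEAT1 genotype of the mice. The part of the embryo that was cultured, the number of embryos behind a line and their sex were not given in the sources used here, and neither was the kind of NEAT1 allele. There was 1 library per genotype, so no spread between replicates exists, no test was made, and a difference is one between these libraries.

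Hox genes encode transcription factors that give cells along the body axis and along the limbs their positional identity. Their order along each cluster follows their order of use in the embryo. Genes at the 3' end, with low numbers, are active early and towards the head, and genes at the 5' end, with high numbers, are active late, towards the tail and in distal limbs and genitalia. Genes with the same number in different clusters are paralogs, descended from 1 ancestral gene and often overlapping in function. Cultured fibroblasts are known to keep a Hox pattern that reflects the body site they came from. NEAT1 is the long non-coding RNA around which nuclear bodies called paraspeckles form.

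The levels are RPKM values, in which reads are scaled by transcript length and by the mapped reads of a library, so that genes can be compared with each other within a library. Differences are given as the KO to WT ratio of RPKM values or as the log2 ratio, for which 1 was added to each RPKM value. The addition pulls the log2 ratios of low genes towards 0. Among 10888 entries that reached 1 RPKM in each library, log2 ratios had a median of -0.06 and KO to WT ratios one of 0.955. Neat1 itself had 29.5 RPKM in WT and 2.01 RPKM in KO, so the targeted gene was low in the library labelled KO. The libraries also differed in genes of the sex chromosomes, since Xist had 28.6 RPKM in WT and 0.050 RPKM in KO, whereas the Y-linked gene Ddx3y had 0.0174 RPKM in WT and 4.18 RPKM in KO. NEAT1 genotype, the sex-linked difference and any difference between embryos or in the tissue taken cannot be told apart in these libraries.

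The mouse Hox genes lie in 4 clusters on separate chromosomes, and the coordinates are those of build mm10, which is GRCm38. Hoxa, with 11 genes, spans chr6:52155367-52260880. Hoxb, with 10 genes, spans chr11:96194361-96368253, which is 173893 bp and the longest span, because Hoxb13 stands apart from the rest. Hoxc has 9 genes in chr15:102921131-103036852 and Hoxd has 9 genes in chr2:74668310-74765142. Each gene is one entry, with no symbol repeated.

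Sequences are shown for the parts of these clusters that the values below turn on. Hoxa3, Hoxa5 and Hoxa7 had the lowest KO to WT ratios of all Hox genes above 1 RPKM, and Hoxa11, in the same cluster, had one close to 1. Their promoters are printed to let the 4 be compared. Each is the 300-base window across the start of the gene in RefSeq (GRCm38.p6, minus strand, 5' to 3'), and capitals mark each CG pair, the site of DNA methylation. The windows are chr6:52213018-52213317 for Hoxa3, chr6:52204538-52204837 for Hoxa5, chr6:52218524-52218823 for Hoxa7 and chr6:52245761-52246060 for Hoxa11.
Hoxa3: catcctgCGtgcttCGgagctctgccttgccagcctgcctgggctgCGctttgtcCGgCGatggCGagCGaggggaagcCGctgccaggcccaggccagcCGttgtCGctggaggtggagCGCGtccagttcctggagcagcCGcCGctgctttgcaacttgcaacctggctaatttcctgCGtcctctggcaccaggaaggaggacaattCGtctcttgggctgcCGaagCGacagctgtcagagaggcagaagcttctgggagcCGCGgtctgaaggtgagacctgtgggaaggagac
Hoxa5: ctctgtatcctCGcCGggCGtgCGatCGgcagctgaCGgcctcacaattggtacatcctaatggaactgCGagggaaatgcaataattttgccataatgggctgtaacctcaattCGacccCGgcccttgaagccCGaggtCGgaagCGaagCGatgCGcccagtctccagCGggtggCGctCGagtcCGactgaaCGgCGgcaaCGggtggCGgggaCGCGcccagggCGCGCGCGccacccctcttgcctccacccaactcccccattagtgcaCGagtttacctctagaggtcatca
Hoxa7: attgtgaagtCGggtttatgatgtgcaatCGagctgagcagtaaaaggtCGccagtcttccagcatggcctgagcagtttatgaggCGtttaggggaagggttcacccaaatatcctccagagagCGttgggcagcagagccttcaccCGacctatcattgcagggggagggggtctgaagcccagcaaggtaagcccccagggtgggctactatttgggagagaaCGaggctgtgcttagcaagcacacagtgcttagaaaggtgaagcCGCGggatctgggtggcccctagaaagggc
Hoxa11: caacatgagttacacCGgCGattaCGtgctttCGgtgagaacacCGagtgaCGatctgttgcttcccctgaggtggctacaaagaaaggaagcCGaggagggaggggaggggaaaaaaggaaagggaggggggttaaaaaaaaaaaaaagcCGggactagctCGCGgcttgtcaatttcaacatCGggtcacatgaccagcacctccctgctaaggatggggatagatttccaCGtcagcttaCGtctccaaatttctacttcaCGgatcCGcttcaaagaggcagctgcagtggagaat

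The windows of Hoxa3 and Hoxa5 held 20 and 29 CG pairs, that of Hoxa7 held 9 and that of Hoxa11 held 15. The 3 promoters of genes with low ratios thus lay on both sides of Hoxa11 in CG pairs. RefSeq promoter windows were found for 22 of the 39 Hox genes, 24 windows in all, with a median of 14.5 CG pairs and 57.7% G and C. Over 32851 windows of the same length from all genes the medians were 7 CG pairs and 52.7%. On either strand, the box CCAAT was present in 15 of the 24 Hox windows (62.5%) and in 37.4% of all windows. The TATA box TATAAA was present in 4 Hox windows (16.7%) and in 13.6% of all windows, and the GC box GGGCGG in 10 (41.7%) and 35.7%. The letters TGATNNAT, which HOX proteins bind together with cofactors, were found in 4 Hox windows (16.7%) and in 8.85% of all windows. AGGTCA, the hexamer of retinoic acid and other nuclear receptors, was found in 7 (29.2%) and in 16.3%. Hoxa5 held CCAAT and AGGTCA once each, and the windows of Hoxa3, Hoxa7 and Hoxa11 held none of the 5 motifs. The motifs share no common core of letters, windows of neighbouring motifs may overlap, and a match is a description of these letters only.

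The clusters also hold genes of microRNAs, small RNAs that pair through their seed with sites in the 3' UTRs of messenger RNAs. They are shown because members of both families have sites in Hox genes. The mature sequences are those of RefSeq, with the seed, bases 2 to 8, in capitals.
miR-196a-5p: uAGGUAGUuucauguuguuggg
miR-196b-5p: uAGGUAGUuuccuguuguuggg
miR-10a-5p: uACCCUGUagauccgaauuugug
miR-10b-5p: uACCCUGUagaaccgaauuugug
miR-196a-5p is encoded by Mir196a-1 (chr11:96265187-96265208) on the 5' side of Hoxb9 and by Mir196a-2 (chr15:102973365-102973386) between Hoxc9 and Hoxc10. miR-196b-5p is encoded by Mir196b (chr6:52230129-52230150) between Hoxa9 and Hoxa10. miR-10a-5p comes from Mir10a (chr11:96317186-96317208) next to Hoxb4 and miR-10b-5p from Mir10b (chr2:74726074-74726096) at Hoxd4. The first pair shares its seed and differs by A12C, and the second pair shares its seed and differs by U12A, with positions counted from the 5' end and the base of the first-named miRNA first.

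A full match to the miR-196 seed, ACTACCT, was present in the longest annotated 3' UTR (GENCODE M21) of 9 of the 39 Hox genes (23.1%), against 6.10% of 21020 genes. Among them were Hoxa4, Hoxa5, Hoxa7, Hoxa9, Hoxb1, Hoxb6, Hoxb7 and Hoxc8. A match to the miR-10 seed, ACAGGGT, was present in 4 Hox genes (10.3%), among them Hoxa3, Hoxb3 and Hoxd1, against 12.5% of genes. The first Hoxc8 site, the Hoxa5 site and the Hoxa3 site are printed with the matched bases in capitals, since these 3 genes were among the 7 with the most negative log2 ratios.
Hoxc8, miR-196: acactcacaactctaACTACCTgtc
Hoxa5, miR-196: gatatttttattcaaACTACCTata
Hoxa3, miR-10: actctttgataagaaACAGGGTata
Hoxa7 held 4 miR-196 sites, which is the largest number in a Hox gene here. All 4 lie beyond the 3' end of the deposited Hoxa7 entry, in a longer 3' UTR of the annotation. The log2 ratios of genes with a miR-196 site differed widely, and ran from -0.95 for Hoxa7 to -0.01 for Hoxb1. The latter rests on an estimated 1 read in WT and 0 in KO, while Hoxb7, with 6.38 and 5.92 RPKM, had -0.09. Mature miRNAs are not captured by poly-A libraries, so their levels were not measured. Of the precursor entries, Mir196a-1 had 1.55 RPKM in WT and 1.83 RPKM in KO, Mir196b had 0.364 and 0.378 RPKM, and Mir10a, Mir10b and Mir196a-2 were under 0.1 RPKM in both.

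Both cultures used the Hox genes broadly. In WT 31 of the 39 genes had at least 1 RPKM and in KO 30 did, of which 29 genes were the same. Hoxa2 and Hoxa4 were above 1 RPKM in WT alone, and Hoxc11 was above it in KO alone. The sum of all Hox values was 193.1 RPKM in WT and 157.1 RPKM in KO, a ratio of 0.813. In bulk RNA, fewer cells that use a gene and less RNA of it per cell cannot be told apart. The 39 genes had a Pearson correlation of 0.956 and a Spearman correlation of 0.931 between the libraries on the log2 scale, against 0.990 and 0.980 over all 23329 entries. These are descriptions over genes, which are not independent, and low values, where counting noise is large, are part of both. The 23329 entries also include 6226 with equal values in both libraries and span a wider range of levels. The correlations of the Hox genes and of all entries are therefore not directly comparable.

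**Figure D1:**
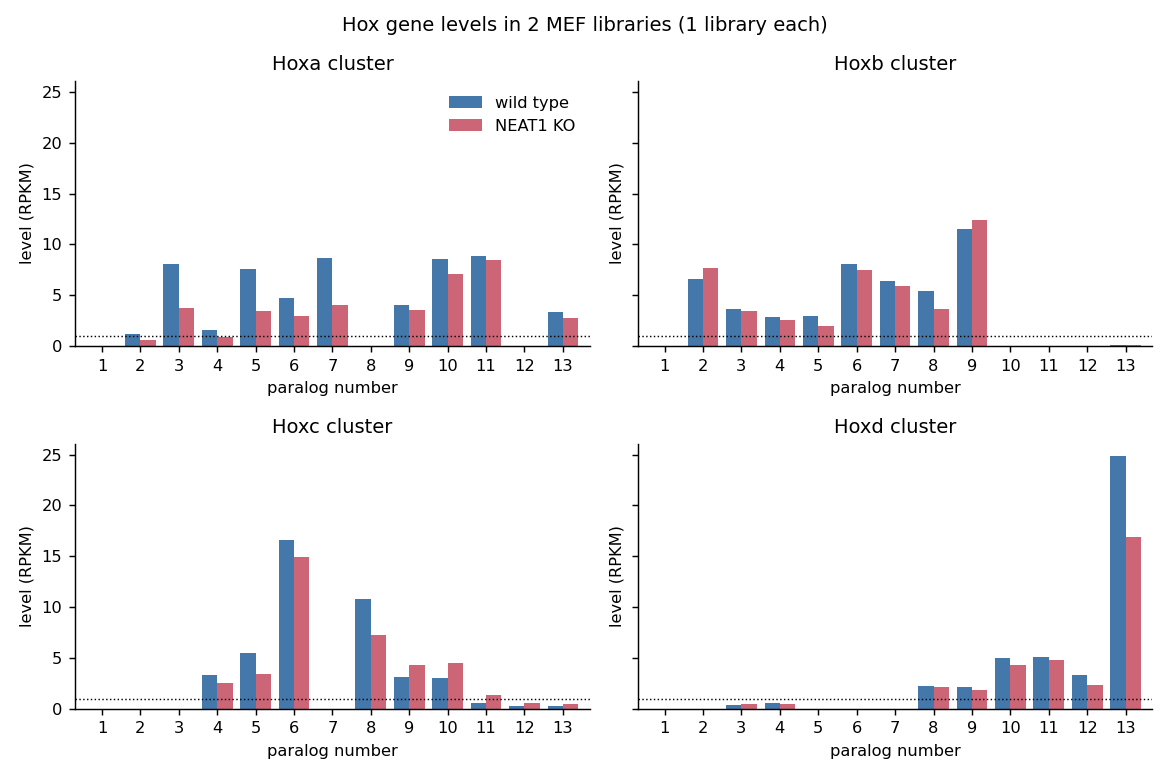
Level of each Hox gene in RPKM by paralog number, 1 panel per cluster, with 1 WT bar (blue) and 1 NEAT1 KO bar (red) per gene and a dotted line at 1 RPKM; each bar is 1 library, so there are no error bars, and a number with no bar is a gene at or near 0, one that the cluster lacks or one not shown. Hoxd13 has the tallest bars, at 24.8 RPKM in WT and 16.9 RPKM in KO, and for Hoxa3, Hoxa5 and Hoxa7 the KO bar is less than 0.5 of the WT bar.

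The levels within each cluster followed the same order of magnitude in both cultures, and the most 5' gene above 1 RPKM was the same in 3 clusters. It was Hoxa13 in Hoxa, Hoxb9 in Hoxb and Hoxd13 in Hoxd. In Hoxc it was Hoxc10 in WT and Hoxc11 in KO. Hoxd13, which patterns digits and genitalia, had the highest level of all Hox genes, with 24.8 RPKM in WT and 16.9 RPKM in KO. It made up 12.9% of the summed Hox RPKM in WT and 10.7% in KO, and stood at rank 2720 and rank 3788 of the 23329 entries. Hoxc6, a gene of the neck-to-chest region, was next with 16.6 RPKM in WT and 15.0 RPKM in KO. Hoxb9, which acts in the thorax, followed with 11.5 and 12.4 RPKM. The cultures therefore held RNA of anterior, trunk and distal genes side by side.

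A few members were at the other end. Hoxd1, known from sensory neurons, was listed at 0 in both libraries. Hoxb1, a gene of a single hindbrain segment, had 0.00769 RPKM in WT and was listed at 0 in KO, which is an estimated 1 read and 0 reads. Hoxb13, a gene of the tail and prostate, had 0.0851 RPKM in WT and 0.0712 RPKM in KO. All 3 were thus at or near the floor in both cultures.

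As a single number for the position of a culture along the Hox axis, the mean paralog number weighted by RPKM was computed. It was 7.89 in WT and 7.98 in KO over all clusters. By cluster it was 7.24 and 7.93 in Hoxa, 6.14 and 6.06 in Hoxb, 6.87 and 7.29 in Hoxc, and 11.7 and 11.4 in Hoxd. The number was thus higher in KO for Hoxa and Hoxc and lower in KO for Hoxb and Hoxd, so that the overall value combines opposite differences. Without the highest gene of each cluster the overall mean was 6.86 in WT and 7.08 in KO, so its level rests on genes such as Hoxd13, while KO stayed above WT.

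The shares of the clusters differed as well. Hoxa held 30.3% of the summed Hox RPKM in WT and 25.1% in KO, and Hoxd held 22.6% and 21.2%. Hoxb held 24.6% and 28.7%, and Hoxc held 22.5% and 25.02%. Hoxa was the largest cluster by sum in WT, at 58.6 RPKM, and Hoxb was in KO, at 45.1 RPKM. In sums, KO had 0.672 of the WT value for Hoxa, 0.764 for Hoxd, 0.905 for Hoxc and 0.949 for Hoxb.

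Most Hox genes were lower in KO, and only few by much. Of the 39 genes, 30 were lower, 8 were higher and Hoxd1 was at 0 in both, with a median log2 ratio of -0.12. Of the 29 genes above 1 RPKM in both libraries, 25 (86.2%) were lower in KO, whereas 60.9% of all such entries were lower. The median KO to WT ratio of these Hox genes was 0.869, beside 0.955 over the entries. No Hox gene had a log2 ratio above 1 or below -1, limits that 0.977% and 0.334% of all entries passed. A log2 ratio below -0.5 was found for 7 Hox genes (17.9%), against 3.75% of all entries. They were Hoxa3, Hoxa5, Hoxa6, Hoxa7, Hoxc5, Hoxc8 and Hoxd13, all among the 29 genes above 1 RPKM in both libraries. Of the 10888 entries above 1 RPKM in both, 673 were below -0.5, a larger share than over all entries, many of which are at 0. Hoxc11 alone was above 0.5 (2.56% of the Hox genes, against 2.91% of all entries). Among entries above 1 RPKM in both, the KO to WT ratio was under 0.5 for 3 of 29 Hox genes (10.3%), Hoxa3, Hoxa5 and Hoxa7, against 1.71% of entries. It was over 2 for none of them, against 2.21% of entries.

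Scaling bore on the smaller of these differences. With the log2 ratios centred on the median of entries above 1 RPKM, 25 Hox genes were lower and 14 higher, and with quantile normalization 25 were lower and 13 higher. The genes that changed sign, among them Hoxa11, Hoxb3 and Hoxd8, all had log2 ratios between -0.07 and 0 before scaling, and the 7 genes below -0.5 stayed negative under both.

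**Figure D2:**
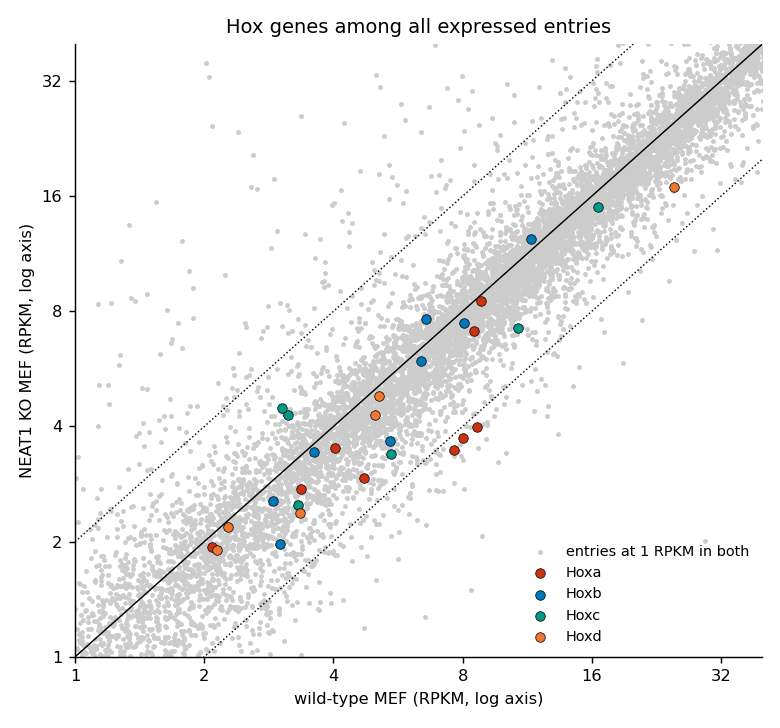
RPKM in NEAT1 KO against RPKM in WT, both on log axes from 1 to 40 RPKM, for entries that reach 1 RPKM in each library (grey) and for the 29 such Hox genes (coloured by cluster); the solid line marks equal values, the dotted lines a 2-fold difference, and entries above 40 RPKM fall outside the axes. Hoxa3, Hoxa5 and Hoxa7 lie below the lower dotted line, and 25 of the 29 Hox genes lie below the line of equal values.

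In the Hoxa cluster all 11 genes were lower in KO, although the sign of Hoxa11 turned with centring and with quantile normalization, where 9 of the 11 were lower. The difference was unequal along the cluster, and a stretch from Hoxa2 to Hoxa7, singled out after its values were seen, had 31.7 RPKM in sum in WT and 15.6 RPKM in KO, a ratio of 0.492. The genes on its 5' side, Hoxa9 to Hoxa13, had 24.8 and 21.8 RPKM, a ratio of 0.882.

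Hoxa3 (chr6:52169062-52213067), needed for the thymus and parathyroid, had 8.04 RPKM in WT and 3.72 RPKM in KO, an estimated 1310 and 571 reads, with a log2 ratio of -0.94. Hoxa5 (chr6:52201754-52204587), which acts in the neck, shoulder and lung, had 7.62 and 3.48 RPKM, an estimated 900 and 386 reads, with a log2 ratio of -0.95. Hoxa7 (chr6:52215624-52218573), a gene of the thoracic skeleton, had 8.66 and 4.00 RPKM and also a log2 ratio of -0.95. These 3 genes thus stood at nearly the same level in WT, and their KO to WT ratios were 0.463, 0.456 and 0.462.

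The other members of the stretch were lower to a smaller extent. Hoxa6 had 4.72 RPKM in WT and 2.93 RPKM in KO, a ratio of 0.621. Hoxa4, which acts in the cervical spine, had 1.54 and 0.851 RPKM (ratio 0.553), and Hoxa2, which patterns the second pharyngeal arch, had 1.15 and 0.624 RPKM (ratio 0.543). For Hoxa2 and Hoxa4 the estimated reads were 128 and 154 in WT and 65 and 80 in KO, so their ratios carry more counting noise than that of Hoxa3. Every ratio in the stretch was below the median over entries, and the genes on its 5' side were nearer to that median.

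The 5' Hoxa genes had ratios between 0.815 and 0.961. Hoxa11, which patterns the forearm and kidney, was the highest Hoxa gene, with 8.84 RPKM in WT and 8.49 RPKM in KO. Hoxa10, which acts in the lumbar spine and uterus, had 8.53 and 7.10 RPKM. Hoxa9 had 4.04 and 3.51 RPKM, and Hoxa13, which patterns hands, feet and genitalia, had 3.36 and 2.74 RPKM. With these close to their WT level, Hoxa10 and Hoxa11 stood above every other Hoxa gene in KO, whereas in WT Hoxa7 was above Hoxa10.

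**Figure D3:**
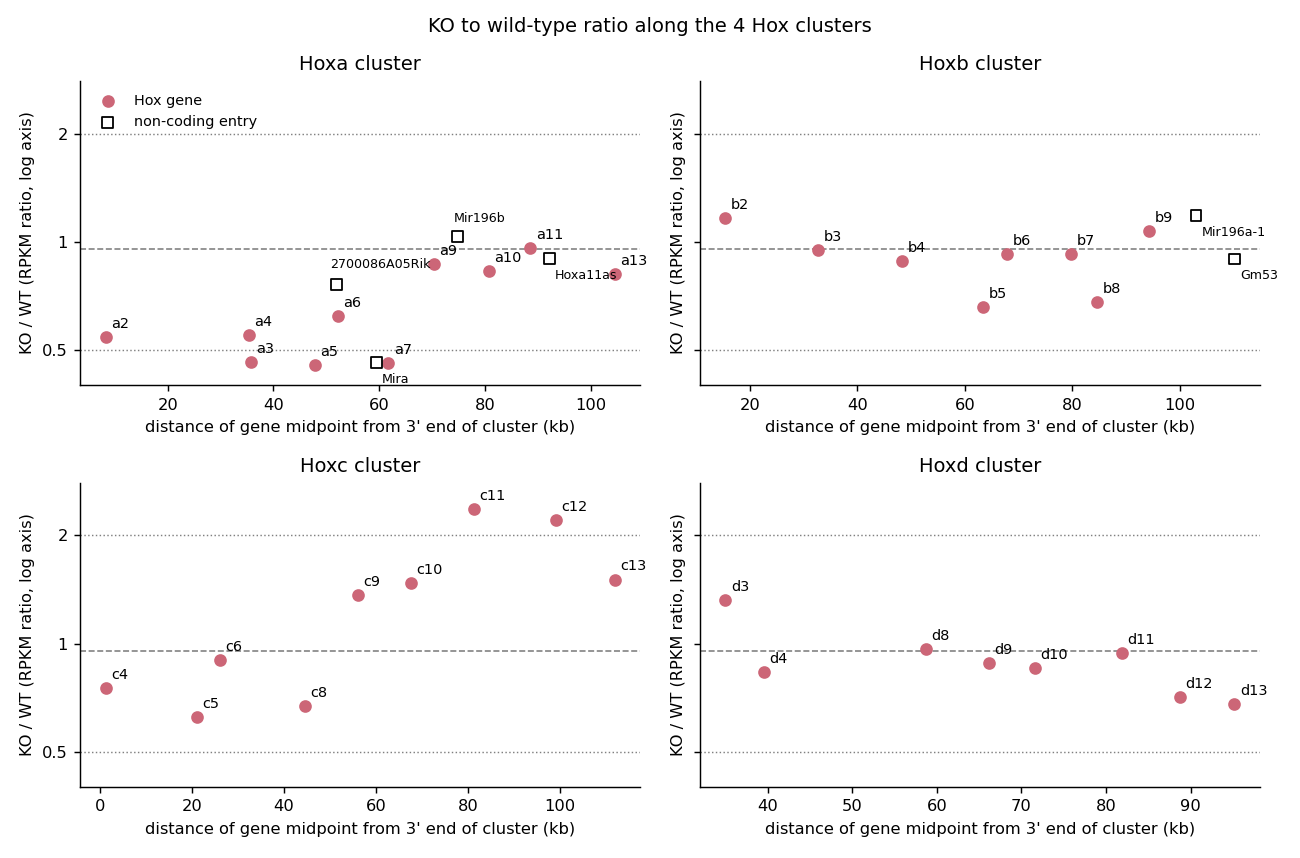
KO to WT ratio of RPKM (log axis) against the distance of a gene's midpoint from the 3' end of its cluster in kb, 1 panel per cluster, for Hox genes (filled circles, named by letter and number) and non-coding entries inside the clusters (open squares); the dashed line is the median ratio of 0.955 over entries above 1 RPKM, dotted lines mark 0.5 and 2, and Hoxb1, Hoxb13, Hoxd1 and some other entries are not drawn. Ratios from Hoxa2 to Hoxa7 lie near 0.5, and ratios in Hoxc pass from below the dashed line for Hoxc4 to Hoxc8 to above it from Hoxc9 on.

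Non-coding entries inside Hoxa had unequal ratios. Mira, an entry of non-coding RNA at chr6:52214492-52215288 between Hoxa6 and Hoxa7, was named for its position after the values were seen. It had 13.3 RPKM in WT and 6.12 RPKM in KO, a ratio of 0.461. All 797 bases of it lie within exons that GENCODE gives to Hoxa7 on the same strand, in the long 3' UTR that holds the miR-196 sites, so its reads cannot be told apart from those of Hoxa7. The antisense transcript 2700086A05Rik, now Hoxaas3, had 1.73 and 1.32 RPKM (ratio 0.762). It lies within the stretch from Hoxa2 to Hoxa7, and its ratio was above that of every Hox gene there. Hoxa11as, now Hoxa11os, the antisense partner of Hoxa11, had 10.8 and 9.70 RPKM (ratio 0.898). Whether the MEF libraries kept strand was not given in the sources used here, and 35.0% of the exon bases of Hoxa11 and 19.4% of those of Hoxa3 are shared with an antisense gene, so the reads of such pairs may be mixed. Hoxaas3 shares 73.4% of the bases of Mira and 28.8% of the annotated Hoxa7 transcript, the latter beyond the 3' end of the deposited Hoxa7 entry.

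Genes outside the Hoxa cluster had ratios from 0.690 to 1.01. The nearest entries above 1 RPKM were Skap2, 143 kb away on the 3' side, with a ratio of 0.834, and Hibadh, 285 kb away on the 5' side, with 1.01. Beyond them Snx10 had 0.690 and Tax1bp1 0.862. The ratio of each was above those of Hoxa2 to Hoxa7.

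The Hoxb cluster differed least. Its sum was 47.5 RPKM in WT and 45.1 RPKM in KO, with 8 genes lower and 2 higher, and log2 ratios had a median of -0.08. Hoxb1, Hoxb3 and Hoxb13 were among those lower, and their signs turned with centring. The highest genes were Hoxb9, given above, with a ratio of 1.07, and Hoxb6, a trunk gene, with 8.08 and 7.46 RPKM. Hoxb2, a hindbrain gene, had 6.56 RPKM in WT and 7.66 RPKM in KO, which was the highest ratio of the cluster at 1.17. The antisense gene Hoxb3os shares 58.5% of the exon bases of Hoxb2, and its part in that value was not tested.

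Only Hoxb5 and Hoxb8 stood clearly apart within Hoxb. Hoxb5 had 3.00 and 1.97 RPKM (ratio 0.659), and Hoxb8, known for its roles in the trunk and in grooming behaviour, had 5.41 and 3.67 RPKM (ratio 0.679). Hoxb7 with 6.38 and 5.92 RPKM, Hoxb4 with 2.89 and 2.56 RPKM and Hoxb3 with 3.61 and 3.43 RPKM had ratios from 0.886 to 0.950. Gm53, a non-coding entry on the 5' side of Hoxb9, had 9.64 and 8.64 RPKM (ratio 0.896). The flanking genes Ube2z, Atp5g1, Snx11 and Cbx1 had ratios from 0.958 to 1.01.

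In the Hoxc cluster the direction switched between Hoxc8 and Hoxc9. The 4 genes from Hoxc4 to Hoxc8 were lower in KO, with sums of 36.1 and 28.1 RPKM and a ratio of 0.778. The 5 genes from Hoxc9 to Hoxc13 were higher in KO, with sums of 7.34 and 11.2 RPKM and a ratio of 1.53. No other cluster held a run of 5' genes that were higher in KO.

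On the 3' side of the switch, Hoxc6 had a ratio of 0.903 and Hoxc4 one of 0.754, from 3.30 RPKM in WT and 2.49 RPKM in KO. Hoxc5, a cervical gene, had 5.45 and 3.40 RPKM and a log2 ratio of -0.55. Hoxc8 (chr15:102990539-102994254), which acts in the thorax and in forelimb motor neurons, had 10.8 and 7.22 RPKM and a log2 ratio of -0.52. Hoxc5 and Hoxc8 were therefore lower by more than Hoxc6, which lies between them.

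On the 5' side, Hoxc9 (chr15:102977032-102984444), which sets the identity of thoracic motor neurons, had 3.14 RPKM in WT and 4.30 RPKM in KO. Hoxc10 (chr15:102966796-102971897), a gene of the lumbar spine and hindlimb, had 3.04 and 4.47 RPKM, an estimated 365 and 505 reads. Hoxc11 (chr15:102954526-102956701), also a hindlimb gene, had 0.584 and 1.39 RPKM. The log2 ratios were 0.36, 0.44 and 0.59, and these were the 3 highest log2 ratios among the Hox genes.

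The remaining 5' genes were low. Hoxc12 had 0.271 RPKM in WT and 0.598 RPKM in KO, and Hoxc13, known for hair and nails, had 0.314 and 0.473 RPKM. Without an added 1 the KO to WT ratios were 2.37 for Hoxc11 and 2.21 for Hoxc12, and the latter rests on an estimated 18 and 36 reads. Gm16258, now Hotair, the non-coding RNA between Hoxc11 and Hoxc12, had 0.0371 and 0.0381 RPKM, levels too low to be compared between the libraries. The flanking genes Calcoco1 and Atp5g2 on the 5' side had ratios of 1.08 and 0.906, Smug1 on the 3' side had 0.956, and Cbx5, farther out, had 0.646.

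The Hoxd cluster was used mainly at its 5' end. Hoxd9 to Hoxd13 held 40.4 of 43.6 RPKM in WT and 30.2 of 33.3 RPKM in KO, and all 5 were lower in KO, with Hoxd11 so close to 0 that quantile normalization reversed its sign. Hoxd13 (chr2:74668310-74671598) had a log2 ratio of -0.53, with an estimated 3878 and 2479 reads, the largest of the 27 estimates for Hox genes. Hoxd12, active in developing digits, had 3.35 and 2.38 RPKM (ratio 0.710). Hoxd10, a hindlimb gene, had 5.00 and 4.27 RPKM, and Hoxd11, the partner of Hoxa11 in the forearm, had 5.10 and 4.80 RPKM. The ratio was thus lowest at Hoxd12 and Hoxd13, the genes at the end of the cluster.

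The rest of Hoxd was low or close to its WT level. Hoxd9 had 2.14 and 1.90 RPKM and Hoxd8 had 2.27 and 2.19 RPKM. Hoxd3, which patterns the atlas, had 0.333 and 0.440 RPKM, and Hoxd4, which acts in the neck, had 0.543 and 0.451 RPKM. Hoxd3 and Hoxd4 share 75.0% and 45.1% of their exon bases with Gm28230, a transcript on the same strand, so their reads are uncertain in origin. Evx2, the neighbour 8.89 kb beyond Hoxd13, had 1.08 and 1.06 RPKM, and farther out Lnp had a ratio of 0.738. Mtx2, on the 3' side, had 0.844.

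The genes of the middle of the clusters, with numbers from 4 to 8, were all lower in KO, 15 of 15. Of these, 13 reached 1 RPKM in both libraries, and 60.9% of all entries above that level were lower. The sums of the 15 genes were 87.2 and 63.6 RPKM, a ratio of 0.729, and their log2 ratios had a median of -0.43. The ratio of this class was lowest in Hoxa, at 0.499, beside 0.778 in Hoxc, 0.838 in Hoxb and 0.940 in Hoxd. Its Hoxa genes had sums of 22.5 and 11.3 RPKM, and its genes outside Hoxa had 64.7 and 52.3 RPKM. Outside Hoxa the ratio of the class was 0.809, beside 0.905, 0.949 and 0.764 for all genes of Hoxc, Hoxb and Hoxd. Under centring or quantile normalization 14 of the 15 were lower, the exception being Hoxd8. Their share of the summed Hox RPKM was 45.2% in WT and 40.5% in KO. The 16 genes with numbers from 9 to 13 comprised 10 that were lower and 6 that were higher, with sums of 84.1 and 75.7 RPKM and a ratio of 0.900. Their share was 43.6% in WT and 48.2% in KO, so that they outweighed the genes from 4 to 8 in KO but not in WT. The 8 genes with numbers from 1 to 3 had 21.8 and 17.8 RPKM, a ratio of 0.818. The classes were drawn with the values known and are a description.

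**Figure D4:**
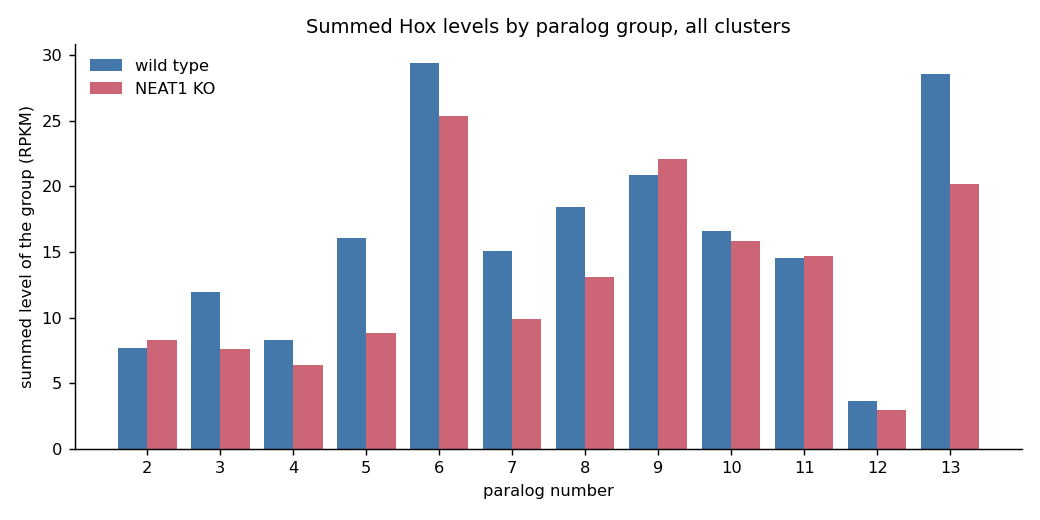
Summed RPKM of all Hox genes that share a paralog number, from 2 to 13, in WT (blue) and NEAT1 KO (red), 1 library each and thus with no error bars. Groups 6 and 13 are the tallest in WT, at 29.4 and 28.6 RPKM, and in KO group 9 stands above group 13, at 22.1 against 20.2 RPKM.

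Over these paralog groups the ratio ran from 0.551 to 1.07. Group 5 had the lowest, with 16.1 RPKM in WT and 8.85 RPKM in KO, and Hoxa5, Hoxb5 and Hoxc5 had ratios of 0.456, 0.659 and 0.624. Group 3 had 0.634, through Hoxa3 alone, since Hoxb3 had 0.950 and Hoxd3 was higher in KO. Group 7 had 0.659, with Hoxa7 at 0.462 and Hoxb7 at 0.927. Groups 13 and 8 had 0.705 and 0.710. Groups 9, 10 and 11 had 1.06, 0.956 and 1.01, and in each of them the Hoxc gene was higher in KO while the Hoxa and Hoxd genes were lower, apart from Hoxa11 and Hoxd11 under the scalings named above. In groups 4 to 8 all genes were lower in KO as reported, and their ratios differed between clusters.

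Genes that work with or on Hox genes were described from lists of related genes, with the values of the named genes in WT and then KO. HOX proteins bind DNA with cofactors of the TALE family. Of 10 TALE genes measured, 6 were lower and 4 higher, none past a log2 ratio of 1, with a median of -0.11. Meis2 had 6.44 and 3.55 RPKM (log2 ratio -0.71) and Pknox2 1.66 and 1.03 RPKM (-0.39). The highest of these TALE genes was Tgif1 with 19.7 and 22.0 RPKM.

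Polycomb proteins keep Hox genes silent outside their domain, and MLL complexes keep them active within it. Of 16 Polycomb genes, 11 were lower and 5 higher, none past a log2 ratio of 1, with a median of -0.10. Ezh2, the histone H3 methyltransferase, had 7.81 and 3.45 RPKM (log2 ratio -0.98), and Bmi1, of the other Polycomb complex, had 6.43 and 3.47 RPKM (-0.73). Phc2 with 49.4 and 41.0 RPKM and Eed with 13.99 and 11.8 RPKM were the highest. Of 8 MLL complex genes, 5 were lower and 3 higher, none past 1, with a median of -0.05. Psip1, which tethers MLL to chromatin, had 5.71 and 3.23 RPKM (log2 ratio -0.67), Men1 24.1 and 25.6 RPKM, and Ash2l 20.3 and 17.6 RPKM (-0.19). The medians of the TALE and Polycomb lists were near that of the Hox genes, and all of these lists had members with opposite signs. Of all entries above 1 RPKM in both libraries, 60.9% were lower in KO.

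Retinoic acid and CDX factors switch Hox genes on in the embryo. Of 12 such genes, 4 were lower, 4 were higher and 4 were listed at 0 in both libraries, namely Cdx1, Cdx2, Cdx4 and Cyp26a1. None passed a log2 ratio of 1, and the median was 0. Aldh1a2, which makes retinoic acid, had 1.13 and 2.17 RPKM (log2 ratio 0.58) and the receptor gene Rara had 17.6 and 13.1 RPKM (-0.40). The receptor genes Rarg, with 41.3 and 48.6 RPKM, and Rxra, with 24.8 and 22.7 RPKM, were the highest. The lists of Hox inputs held no gene past the limit, which 0.977% of all entries passed upwards and 0.334% downwards. At such rates, lists this short would hold few or none.

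Other genes of regional identity in mesenchyme were in part different between the cultures. Of 31, 10 were lower and 21 higher in KO, whereas 60.9% of entries above 1 RPKM in both were lower. That level was reached in both libraries by 21 of the 31 genes, so the list and these entries are unlike sets. The median of the 31 log2 ratios was 0.11, opposite in sign to that of the Hox genes. En1, which marks the ventral side of the limb and the dermis of the back, had 2.71 and 6.83 RPKM (log2 ratio 1.08). It was the only one past 1, which 0.977% of all entries passed. Meox1, a gene of the somites, had 1.00 and 2.94 RPKM (0.97), whereas Dlx2, of the branchial arches, had 5.97 and 2.61 RPKM (-0.95) and was named after its value was seen. The limb-bud genes Prrx2, with 178 and 133 RPKM, and Prrx1, with 56.4 and 67.0 RPKM, were the highest. The forelimb gene Tbx5 had 4.49 and 4.75 RPKM and the hindlimb genes Tbx4 and Pitx1 had 5.06 and 5.95 RPKM and 8.81 and 9.98 RPKM, also named after their values were seen. Fore- and hindlimb genes were thus both present in both cultures, as were the distal limb genes Hoxa13 and Hoxd13.

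**Figure D5:**
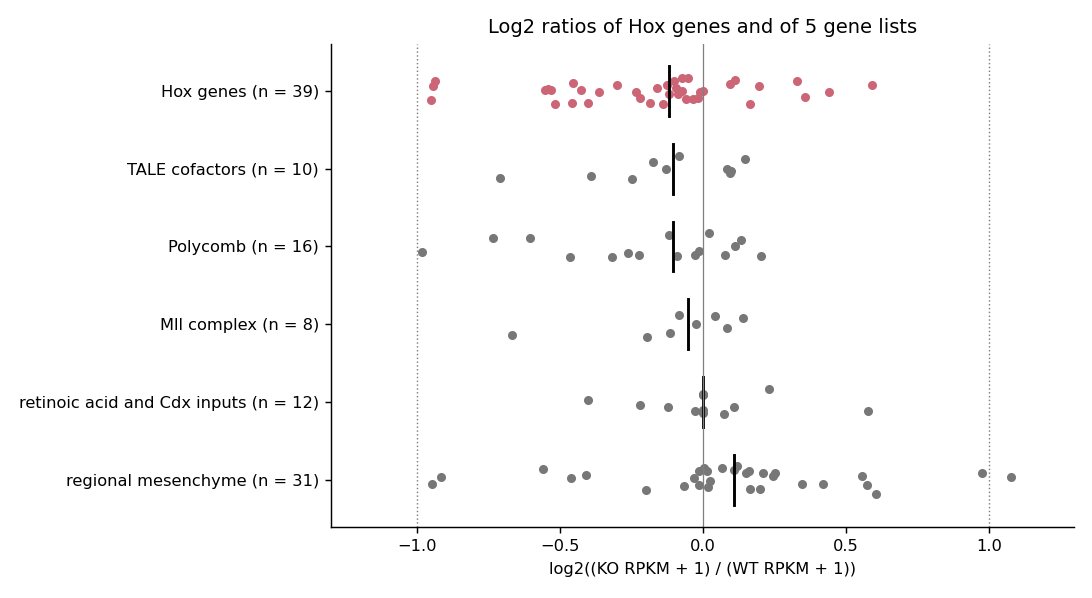
Log2 ratio of KO to WT, with 1 RPKM added, for the 39 Hox genes (red) and for 5 lists of related genes (grey), 1 point per gene spread vertically for visibility, with a black bar at each median, a solid line at 0 and dotted lines at -1 and 1. The Hox median lies at -0.12 and that of regional mesenchyme genes at 0.11, and En1 is the only point beyond a dotted line.

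Of 21 listed non-coding genes and neighbours of the clusters, 12 had an entry. None was past a log2 ratio of 1, 4 were lower, 5 were higher and 3 were listed at 0 in both, namely Mir196a-2, Mir615 and Evx1. Hoxaas3 and Mir196a-1 had the log2 ratios farthest from 0, at -0.24 and 0.15, and Hoxa11os was the highest entry. 1700109F18Rik, now Hoxd3os1, had 0.0381 and 0.0637 RPKM. Mira was not on this list.

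The label of the cells was set against marker genes. All 11 fibroblast markers were above 1 RPKM in both libraries, with a median log2 ratio of 0.53. In KO 9 were higher, 3 of them, Pdgfra, Dcn and Lum, past a log2 ratio of 1. The 2 that were lower were Vim, with 3151 and 2448 RPKM (-0.36), and Fn1, with 765 and 517 RPKM (-0.56). The 6 macrophage markers were all higher in KO, with a sum of 19.4 RPKM in WT and 48.9 RPKM in KO, while Ptprc, the pan-leukocyte marker, had 0.0449 and 0.0813 RPKM. Cd68, Cd14 and Lyz2 passed a log2 ratio of 1, beside the same 0.977% of all entries. Of 5 skeletal muscle markers 4 were lower and none higher, with Acta1 at 12.6 and 4.26 RPKM, while Myod1, Myog and Myf5 were at or near 0 in both. The 3 cartilage markers had sums of 33.5 and 29.9 RPKM, mostly Col2a1 with 26.7 and 23.3 RPKM. Endothelial markers summed to 1.13 and 0.576 RPKM, mostly Kdr with 1.01 and 0.397 RPKM, and of the 5, 2 were lower and 3 higher in KO. Epithelial markers summed to 1.09 and 0.677 RPKM, mostly Krt18 with 1.02 and 0.660 RPKM. Of 7 neural markers Tubb3 alone exceeded 1 RPKM. The defining epithelial marker Cdh1 was listed at 0 in both. Some markers of other cells, mainly of macrophages and skeletal muscle, thus differed between the cultures along with the Hox values. Their part in the Hox values was not tested.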

How the data were processed

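Poly-A RNA of 1 WT and 1 NEAT1 KO MEF library was sequenced. For each of 23329 entries with coordinates the authors deposited an RPKM, in which reads are scaled by transcript length and mapped reads. Per the labels, CASAVA 1.8 and builds mm10 and hg18 were used, in roles not stated, and the aligner and counter are not given in the sources used here. No normalization between libraries was stated, and none was applied.

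For every entry a log2 ratio was taken after adding a pseudocount of 1 RPKM. Levels were called at 1 RPKM and differences at a log2 ratio of 1 and of 0.5. With 1 library per genotype no test was made. Total reads are not given. Low RPKM values multiplied by transcript length piled up at 15.9 and 31.9 in WT and at 16.9 and 33.8 in KO. A single step was taken as 1 read. The double step was the commoner, with 115 entries against 68 in WT and 94 against 58 in KO. The read layout was not given, so estimated reads may exceed the number of independent fragments. The estimated reads used the GENCODE M21 length where both ends of the transcript lay within 100 bp of the entry, which 27 Hox genes met. They carry no interval.

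Every Hox gene could be named, and 2 genes that these rules cover are not reported here. There were 13 other lists, with the marker lists. For the lists of related genes, the 2 genes farthest from 0 in log2 ratio and the 2 highest in mean were named. Some further genes on these lists were named with their values known, and not every such case is marked. The cell type markers followed no such rule, and those named were picked with their values known. The members, lists, classes and stretches were chosen with earlier results of these data known. Median centring, quantile normalization, a pseudocount of 0.1, a floor of 1 RPKM in either library, other level limits and other weights were tried as alternatives. The calculation was tested on simulated data. Scripts ran in Python 3.11.15 with matplotlib 3.10.9, pandas 2.3.3 and numpy 2.4.6. The human libraries of the series were not used here.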

Additional observations from a re-analysis of the deposited data

How the results depend on the processing

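With a pseudocount of 0.1 in place of 1, 1 Hox gene passed 2-fold upwards (Hoxc11) and 3 passed it downwards (Hoxa3, Hoxa5 and Hoxa7). With no pseudocount, an alternative added after seeing the data, 2 passed upwards (Hoxc11 and Hoxc12) and 3 downwards, beside 0 in each direction as reported, because a pseudocount shrinks the ratios of low values. A minimum of 1 RPKM in 1 library, median centring and quantile normalization left both counts at 0. Without the highest gene of each cluster the weighted mean paralog number was 6.86 in WT and 7.08 in KO, and weighted by log2(RPKM + 1) it was 7.44 and 7.62, so that KO was above WT under each. The median log2 ratio of the Hox genes lay between -0.17 and -0.04 under all alternatives. At limits of 0.5 and 3 RPKM, 33 and 24 Hox genes passed in WT and 33 and 20 in KO. Hoxc9 to Hoxc13 were higher in KO under every alternative, with 3 of them left under the minimum of 1 RPKM. The Hoxa genes were lower in 10 of 11 cases under centring and in 9 of 11 under quantile normalization. No paired analysis was possible because each genotype has 1 library. For the same reason no value here has a replicate error, and the genes under 1 RPKM, such as Hoxc12, rest on few reads.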
